A study of Rattus norvegicus with 44 samples.

Results

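The genes described here encode the proteins of the mitochondrial ribosome and of the machinery that brings proteins into mitochondria. They were taken by symbol from 2 tables of normalized read counts, 1 for hippocampal CA1 and 1 for the dentate gyrus (DG) of the rat: every gene named Mrpl or Mrps with a number (mitochondrial ribosomal proteins of the large and small subunit), Tomm with a number (translocase of the outer membrane, TOM) or Timm with a number (translocase of the inner membrane, TIM). A gene counted as a member if its value was at least 10 in at least 6 libraries of the region. In CA1, 93 of 96 matching genes passed, among 14915 genes tested and 20003 listed. They were 42 of the large subunit, 29 of the small subunit, 9 of TOM and 13 of TIM. In DG, 96 of 97 passed, among 14904 tested and 20050 listed, with 44, 29, 9 and 14 in the same order. The 93 genes that passed in CA1 all passed in DG too. Mrpl53 missed the limit in CA1 (at least 10 in 4 libraries, highest value 44.2), as did Mrps21l in both regions and Timm8a2 in CA1. Mrpl55 and Timm10 were analysed in DG alone.

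Polyadenylated RNA from CA1 and DG of 1 hippocampus of each of 22 male rats gave 44 libraries. Young rats (5 to 7 months) received intraperitoneal injections of saline (young vehicle, 8 rats) or of lipopolysaccharide (LPS, a bacterial endotoxin that provokes inflammation) at 1 mg per kg (young LPS, 8 rats), and aged rats (14 to 16 months) received saline (aged vehicle, 6 rats). Every rat had 1 injection a week over 7 weeks, and the hippocampus was dissected 48 hours following the final one. There was no aged LPS group.

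Mitochondria keep a small genome whose protein products are all subunits of the oxidative phosphorylation complexes. These are made on a ribosome of their own, which has a large subunit (MRPL proteins), where peptide bonds are formed, and a small subunit (MRPS proteins), where the messenger RNA is decoded. Every protein of that ribosome is encoded in the nucleus, so it has to be imported: TOMM20, TOMM22 and TOMM70 are receptors on the outer membrane, TOMM40 is the pore, the small TIMM proteins such as TIMM13 and TIMM8A1 escort hydrophobic proteins between the membranes, TIMM23 with TIMM50 takes up proteins that carry a presequence, TIMM44 tethers the import motor, and TIMM22 inserts carrier proteins into the inner membrane. Neurons depend on mitochondrial respiration for synaptic transmission. A few symbols of these families name proteins outside that machinery: TOMM34 is a cytosolic cochaperone, and MRPS36 is also known as a part of the 2-oxoglutarate dehydrogenase complex.

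Promoters are shown because genes of these families are known for sites of NRF1, ETS factors and YY1 close to the start of transcription. The members called below went in both directions. RefSeq promoters of build GRCr8, 250 bases before to 50 after the start, matched 80 of 98 symbols (82 promoters). Matches were searched on both strands. The ETS core CCGGAAG stood in 27 of the 82 promoters (32.9%), against 8.75% of all 33469 promoters and 10.7% of the 21842 of protein-coding genes. The YY1 letters AAGATGGCG stood in 10 (12.2%), against 1.73% and 2.07%, and AAGATGGC, which is part of that motif, stood in 16 (19.5%), against 3.17% and 3.68%. The NRF1 letters GCGCATGCG stood in 6 (7.32%), against 1.52% and 1.92%, and GCGCANGCG, which contains the former, stood in 13 (15.9%), against 5.80% and 7.62%. These are descriptions of letters and not of binding. The stretches below belong to members whose values are given in detail, with the match in capitals, read 5′ to 3′ on the gene's strand.
Tomm70 (receptor), chr11:56886340-56886386, minus strand: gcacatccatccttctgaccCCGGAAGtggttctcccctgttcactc
Tomm20 (receptor), chr19:71832422-71832468, minus strand: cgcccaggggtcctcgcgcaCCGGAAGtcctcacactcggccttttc
Tomm20 (receptor), chr19:71832495-71832543, minus strand: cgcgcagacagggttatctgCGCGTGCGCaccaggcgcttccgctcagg
Mrpl48 (large subunit), chr1:164351426-164351472, minus strand: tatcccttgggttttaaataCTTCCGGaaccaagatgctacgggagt
Mrpl34 (large subunit), chr16:18186312-18186360, plus strand: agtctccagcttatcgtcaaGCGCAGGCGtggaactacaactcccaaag
Mrps18b (small subunit), chr20:2842976-2843005, plus strand: tccttgtccgGCGCATGCGcagtcgttctt
Timm50 (presequence receptor), chr1:92710267-92710296, minus strand: gcgtcagcgcAAGATGGCGgcctcggcagc
The first Tomm20 stretch, like that of Tomm70, holds the ETS letters, and Mrpl48 holds them on the opposite strand. Of the 4 members called in CA1 below, Tomm70 held the ETS letters, Timm50 held the YY1 letters, and Timm13 held none of the motifs in this window. Mrpl43 was among the symbols that did not match a promoter. In the test of regions below, members called in the same direction did not all share a motif. Of those called higher there, Mrpl34, Mrps18b and Mrps26 held NRF1 letters. Mrps18b and Mrps26 held ETS letters too, and Mrps18b also held AAGATGGC. Timm13 and Tomm6, called higher in that test too, held none, and no match was found for Tomm40 or Mrpl54. Of those called lower there, Tomm70, Mrpl20 and Mrpl48 held ETS letters, and Mrpl48 also held AAGATGGC. No match was found for Mrps33.

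The libraries held between 12292346 and 18749663 recovered reads in CA1 and between 12130182 and 23519791 in DG. Values are normalized read counts, and tests used limma on log2(value + 1) with p-values adjusted over all genes of the region by the Benjamini-Hochberg method (called: adjusted p under 0.05). A change on this scale understates that of genes with low values, and in tissue the loss of cells of a type and less RNA per cell cannot be told apart. The 6 CA1 pyramidal markers summed to between 23549 and 57187 in the CA1 libraries and to between 1188 and 15967 in the DG libraries, and the 7 dentate granule markers to between 1199 and 6919 in CA1 and between 6472 and 12028 in DG. Of the granule markers, Lct and Tdo2 were at 0 in some libraries of both regions. In DG the pyramidal sums had medians of 4162 in young vehicle, 5698 in young LPS and 10269 in aged vehicle rats, with overlapping ranges. The tests between regions were not adjusted for these markers, and the part of dissection in them was not tested. The aged CA1 library of rat 2532 stood apart. It had the fewest reads of CA1, and its deviations over all genes had an SD of 1.04 on the log2 scale (0.30 to 0.74 in the other 21). Many of the values that it moves are also given without it.

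Between libraries of the same group the median spread of the members was slightly below that of all genes tested. Genes matched to the members for level were not compared. The median within-group SD on the log2 scale was 0.27 over the 93 members and 0.32 over all genes tested in CA1. In DG it was 0.22 over the 96 members and 0.26 over all genes. The CA1 spreads include rat 2532, which held the lowest value of 47 members and the highest of 17. They are not given without it. Mrps2 was the steadiest member in CA1 (SD 0.10), followed by Mrpl16 (0.15) and Mrps27 (0.16). Mrpl3, Mrpl2 and Mrps21 were steadiest in DG (0.12 each). Mrpl1 varied most in CA1 (1.80), with values from 0 to 80.2 in the young rats, and Mrpl53 (2.51) and Mrpl1 (1.17) varied most in DG. The map of all members by library shows 1 column, rat 2532 in CA1, with wide deviations of both signs.

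**Figure D1:**
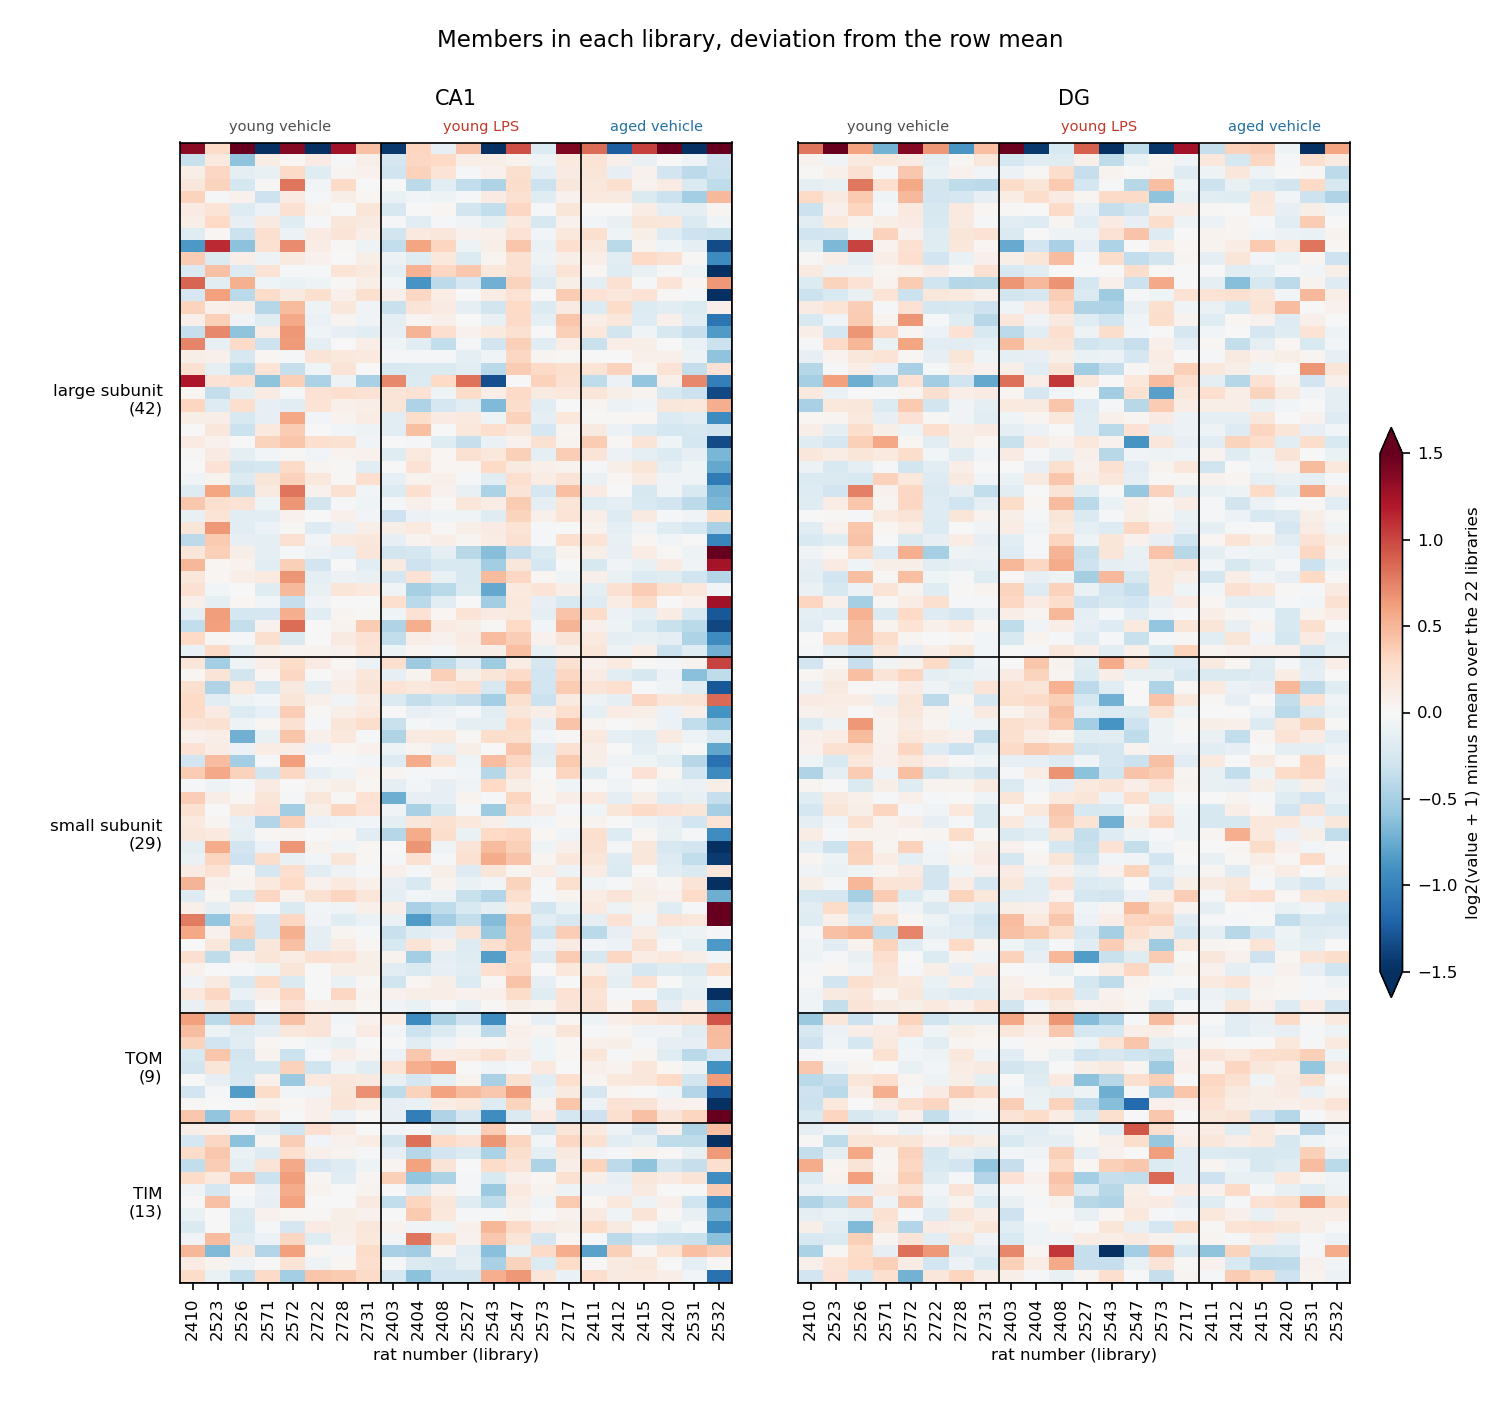
Deviation of the 93 members tested in both regions (rows, grouped by role) from their mean over the 22 libraries of the region (columns, by rat), as log2(value + 1), with the colour scale ending at -1.5 and 1.5. The CA1 library of rat 2532 has the lowest value of 47 members and the highest of 17; its SD over members is 0.92.

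In that library the members did not move as 1 block. Their mean lay 0.36 below the mean of all CA1 libraries on the log2 scale, 63 of 93 members lay below their own mean, 47 had their lowest value of all 22 libraries there and 17 their highest. The large subunit lay at -0.42, the small subunit at -0.39, TIM at -0.36 and TOM at 0.04. The TOM mean took in wide deviations of both signs, from -1.59 for Tomm7 to 1.91 for Tomm70. Members low there included Mrps26 (197, against 411 to 606 in the other aged CA1 libraries), Timm13 (381, against 825 to 1262) and Tomm6 (71.5, against 128 to 178). Members high there included Tomm70 (1537, against 328 to 551), Mrps33 (960, against 235 to 303) and Mrpl48 (1666, against 591 to 763). The same rat's DG library showed nothing of the kind, with a member mean of -0.06.

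**Figure D2:**
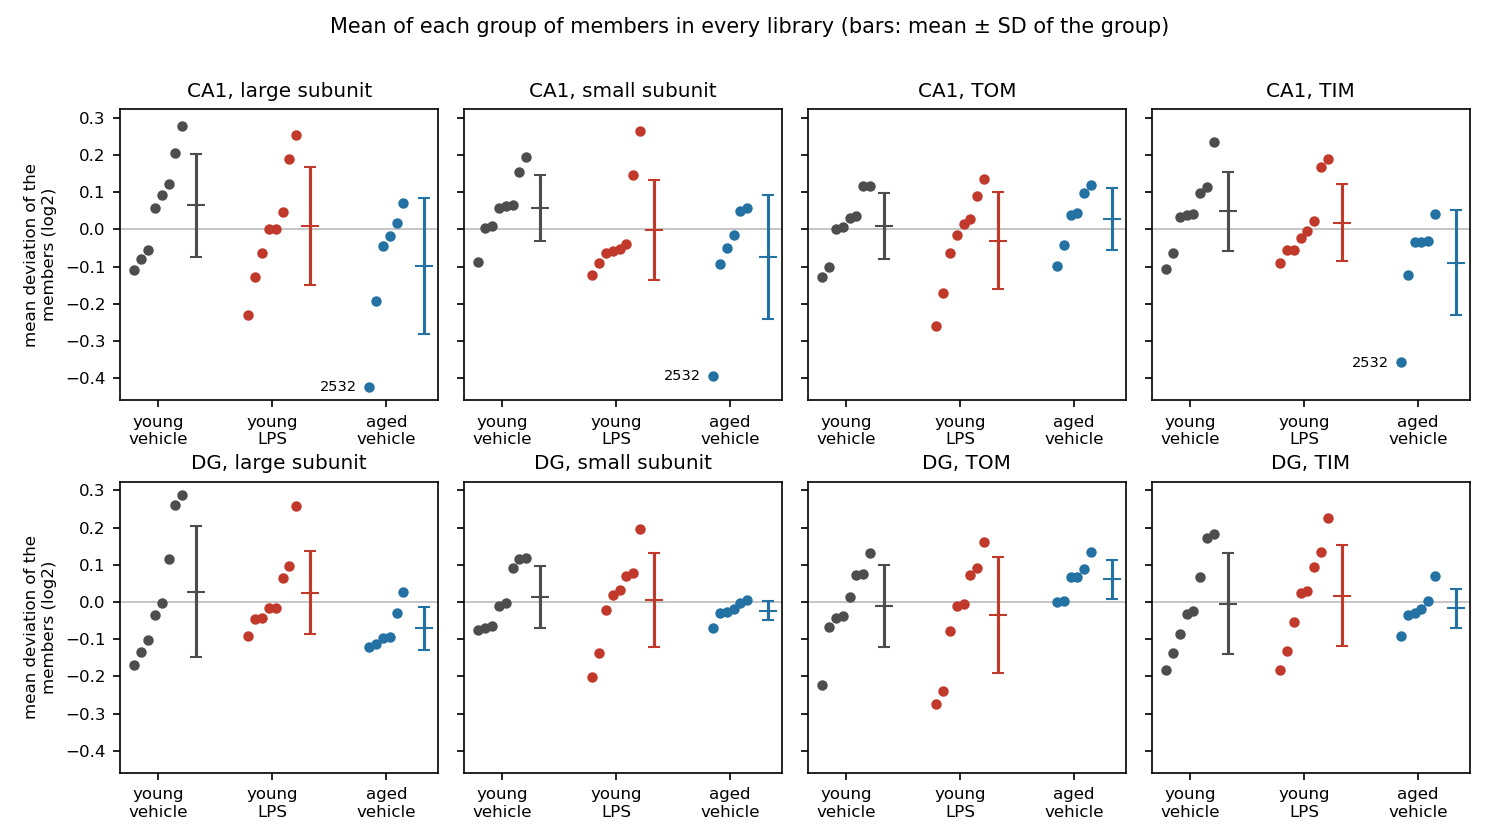
Mean deviation of the members of each role from their mean over the region's libraries (log2), 1 point per library, with the mean ± SD of each group beside the points. The groups overlap in every panel, and rat 2532 is the lowest CA1 library for the large subunit (-0.42), the small subunit (-0.39) and TIM (-0.36) but not for TOM (0.04).

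Age was compared first, between aged and young rats that both received saline. In CA1 the members leaned lower in aged rats without any one being called: 72 of 93 had a lower mean, and their median change was -0.16 on the log2 scale, where the median over all genes was 0.00. At an unadjusted p under 0.05, 10 members were lower and 0 higher. Over all genes, 12.6% passed that limit, and 5.80% passed it and were lower. None was called by limma, edgeR or DESeq2 (0 of 93), against 0.0134% of all genes by limma. Without rat 2532 the median was -0.08, 68 of 93 members were lower, and 3 of 93 passed the unadjusted limit (3.23% against 6.06% of all genes). The lean was not particular to the members. Nuclear oxidative phosphorylation genes had a median of -0.18 (66 of 81 lower), and cytosolic ribosomal protein genes -0.41 (66 of 72 lower). Without that rat these were -0.11 and -0.23. Mitochondrially encoded genes had -0.04 (7 of 11 lower), or -0.11 without it.

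By role, the lean was -0.18 for the large subunit (32 of 42 lower), -0.17 for the small subunit (24 of 29), -0.09 for TIM (11 of 13) and -0.01 for TOM (5 of 9). Without rat 2532 it was -0.10 for the large subunit (34 of 42), -0.06 for the small subunit (20 of 29), -0.05 for TIM (10 of 13) and 0.01 for TOM (4 of 9). The smallest p belonged to Mrpl43, a large subunit protein, with a mean of 786 ± 171 (SD, n = 8) in young vehicle and 566 ± 72.6 (n = 6) in aged vehicle rats (log2 change -0.45, SE 0.13, limma adjusted p = 0.39). Timm50, which receives presequence proteins at the inner membrane, was at 522 ± 87.2 and 395 ± 53.8 (-0.39, SE 0.14, adjusted p = 0.39). Mrps11 of the small subunit differed by -0.30 (adjusted p = 0.39). On the other side, Mrpl51 differed by 0.32 (adjusted p = 0.40), Mrps31 by 0.30 (adjusted p = 0.45) and Tomm70 by 0.42 (adjusted p = 0.41). Without rat 2532 these were 0.12 for Mrpl51, 0.01 for Mrps31 and 0.13 for Tomm70, while Mrpl43 (-0.38), Timm50 (-0.34) and Mrps11 (-0.27) moved less. The pore Tomm40 (-0.08), the receptors Tomm20 (0.12) and Tomm22 (-0.03), the motor tether Timm44 (-0.06) and Timm22 (0.03) were near 0, and Tomm6 (-0.32), Timm23 (-0.30), Mrpl12 (-0.19) and Mrps12 (-0.17) were not called either. Leaving out that rat took Tomm6 to -0.13, Timm23 to -0.15, Tomm40 to -0.05 and Tomm22 to -0.12, and changed the sign of Mrps12 (0.04), Timm44 (0.10), Tomm20 (-0.02) and Timm22 (-0.04).

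In DG, age left the members close to level. Their median change was -0.02, 59 of 96 were lower, and 0 of 96 were called by limma (0.0134% of all genes), edgeR or DESeq2. At an unadjusted p under 0.05 there were 2 (2.08% against 2.99% of all genes): Mrps15, and Mrpl53, which passed the filter through young rats alone. Both were lower in aged rats. Without rat 2532 neither of them passed, and the 1 member that did was higher (1.04% against 2.54%). Mrps15 of the small subunit differed by -0.20 (SE 0.10), from a mean of 529 to 461. Tomm40 differed by 0.17 (SE 0.08), Timm23 by 0.24 (SE 0.14), Mrpl21 by 0.24 (SE 0.13), Mrps30 by 0.19, Timm8b by -0.21 and Tomm22 by -0.12, each with an adjusted p of 1.0. Timm44 (0.19), Tomm20 (0.16), Mrpl12 (-0.14), Mrps12 (-0.05), Tomm70 (0.04) and Timm50 (-0.03) were not called. Medians by role lay between -0.03 and 0.05.

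Repeated LPS was then compared with saline in young rats. In CA1 the members' median change was -0.03, with 41 of 93 higher and 52 lower, and the median of all genes was 0.01. None of the 93 was called by limma, edgeR or DESeq2, and limma called 0% of all genes. At an unadjusted p under 0.05 there were 4, all lower, where 6.87% of all genes passed. Without rat 2532, which belongs to neither group but enters the shared estimate of the spread, 9 passed (1 higher and 8 lower), against 13.2% of all genes, and 0 were called. Tomm20, the receptor that recognises presequences, ran from 944 to 1911 (median 1367) in young vehicle and from 649 to 1346 (median 1079) in young LPS rats (log2 change -0.46, SE 0.18, adjusted p = 0.65). The ranges overlapped. Tomm70, the receptor for carrier proteins, differed in the same direction (-0.44, SE 0.23), and so did Mrpl20 (-0.39, SE 0.17), Mrps14 (-0.25) and Timm17a, a TIM23 channel protein (-0.25). Tomm40l, a relative of the pore, differed by 0.28, Timm13 by 0.29, Mrps26 by 0.17 and Mrpl10 by 0.14. Mrpl12, Mrps12, Tomm22, Tomm40, Timm23, Timm44 and Timm50, lay between -0.16 and 0.17. All of these had an adjusted p of at least 0.65.

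In DG the median change with LPS was -0.01, with 41 of 96 members higher. Again 0 of 96 were called by limma (0.0134% of all genes), edgeR or DESeq2, and 7 passed the unadjusted limit, 3 higher and 4 lower, or 7.29% against 7.53% of all genes. Mrpl33, a small protein of the large subunit, ran from 27.7 to 74.0 (median 33.5) in young vehicle and from 47.5 to 100.8 (median 55.4) in young LPS rats (log2 change 0.69, SE 0.21, adjusted p = 0.52), so that 6 of the 8 saline values lay under all 8 LPS values. Mrps31 differed by 0.24, Mrpl57 by -0.22 and Tomm40 by -0.19 (adjusted p = 0.56, 0.56 and 0.60). Tomm20 and Tomm70, lower on average in CA1 of LPS rats, were higher on average in DG (0.24 and 0.22, neither called). Timm10 (0.42), Timm13 (-0.14) and Mrps24 (-0.18) were not called, and Mrpl12, Mrps12, Tomm22, Timm23, Timm44 and Timm50 lay between -0.11 and 0.07.

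**Figure D3:**
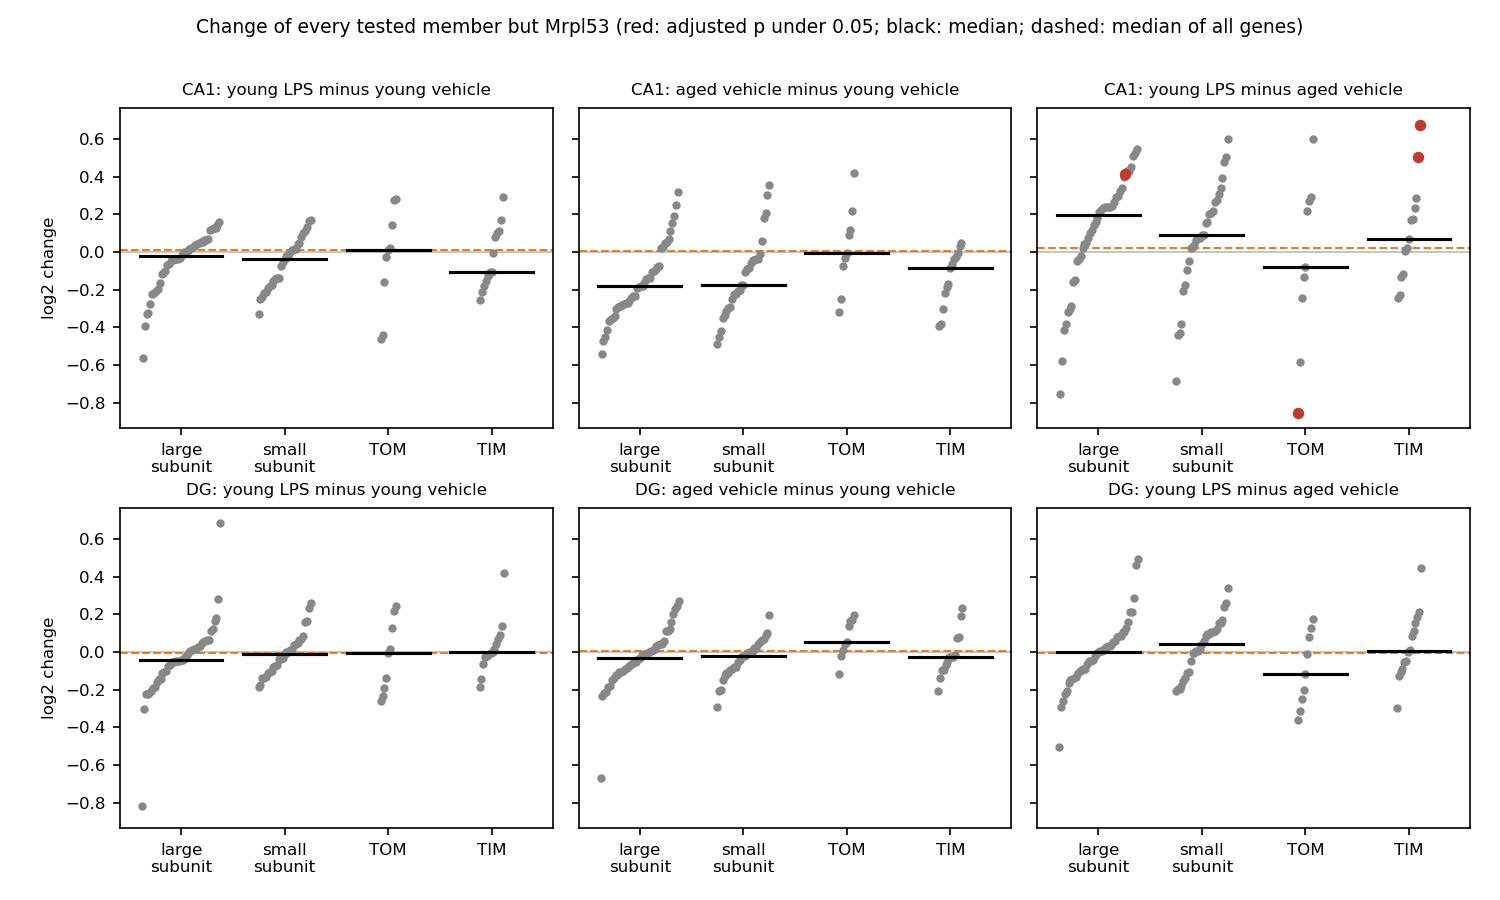
Log2 change of each tested member (points, grouped by role) in the 3 comparisons of both regions; red points have an adjusted p under 0.05, black bars are medians and the dashed line is the median of all genes. Mrpl53 is left out for its scale. Red points occur only in CA1 between young LPS and aged vehicle, where 3 members were higher and 1 lower.

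The comparison of young LPS with aged vehicle rats, which differ in both age and treatment, gave the only calls among members within a region. In CA1, 3 members were higher in young LPS rats, Timm50, Timm13 and Mrpl43, and 1 was lower, Tomm70. That is 4 of 93 (4.30%), below the 8.73% of all genes called in this comparison. Of all genes, 3.49% were called higher and 5.24% lower. The members' median change was 0.14 (64 of 93 higher) and that of all genes 0.02. At an unadjusted p under 0.05 there were 16 higher and 11 lower members, 29.0% against 35.8% of all genes. Without rat 2532 there were 14 (15.1% against 24.7%).

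Timm50 had values from 412 to 856 (median 535) in young LPS, from 321 to 487 (median 393) in aged vehicle and from 433 to 679 (median 497) in young vehicle rats. The LPS mean of 570 ± 137 (SD, n = 8) exceeded the aged mean of 395 ± 53.8 (n = 6) by 0.51 on the log2 scale (SE 0.14, adjusted p = 0.049). The aged group was the low one, and 5 of its 6 values lay under all 8 LPS values. Timm13, an escort of the space between the membranes, ran from 887 to 1912 (median 1329) in LPS and from 381 to 1262 (median 892) in aged rats (log2 change 0.68, SE 0.21, adjusted p = 0.049). The ranges overlapped, with 5 of 8 LPS values above all 6 aged values, and young vehicle rats reached from 703 to 1388. Mrpl43 ran from 635 to 914 (median 746) in LPS and from 438 to 640 (median 585) in aged rats (0.41, SE 0.13, adjusted p = 0.049). The overlap was slight, 1 LPS value under the highest aged value, and young vehicle rats reached from 580 to 1107.

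Tomm70 went the other way. Its values were 199 to 445 (median 341) in LPS, 328 to 1537 (median 495) in aged and 271 to 541 (median 422) in young vehicle rats (log2 change -0.86, SE 0.24, adjusted p = 0.049). The highest aged value was that of rat 2532, and the next was 551. Tomm20, another receptor, was not called. Its means were 1032 ± 278 in LPS, 1411 ± 345 in young vehicle and 1534 ± 440 in aged rats (LPS against aged -0.58, SE 0.19, adjusted p = 0.053). Its ranges in LPS (649 to 1346) and aged rats (1189 to 2411) overlapped. Without rat 2532 the aged mean was 1358 ± 106 (n = 5), below that of young vehicle rats, and the difference between LPS and aged rats was -0.44 (adjusted p = 0.15). Tomm22 (-0.13, adjusted p = 0.43) and the pore Tomm40 (0.22, adjusted p = 0.18) were not called, nor were Timm23 (0.17), Timm44 (0.23), Mrpl12 (0.21), Mrps12 (0.31), Mrps26 (0.51, adjusted p = 0.062) and Mrps14 (-0.43, adjusted p = 0.052). Without that rat these became -0.04 for Tomm22, 0.19 for Tomm40, 0.02 for Timm23, 0.07 for Timm44, 0.18 for Mrpl12, 0.09 for Mrps12, 0.28 for Mrps26 and -0.30 for Mrps14.

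**Figure D4:**
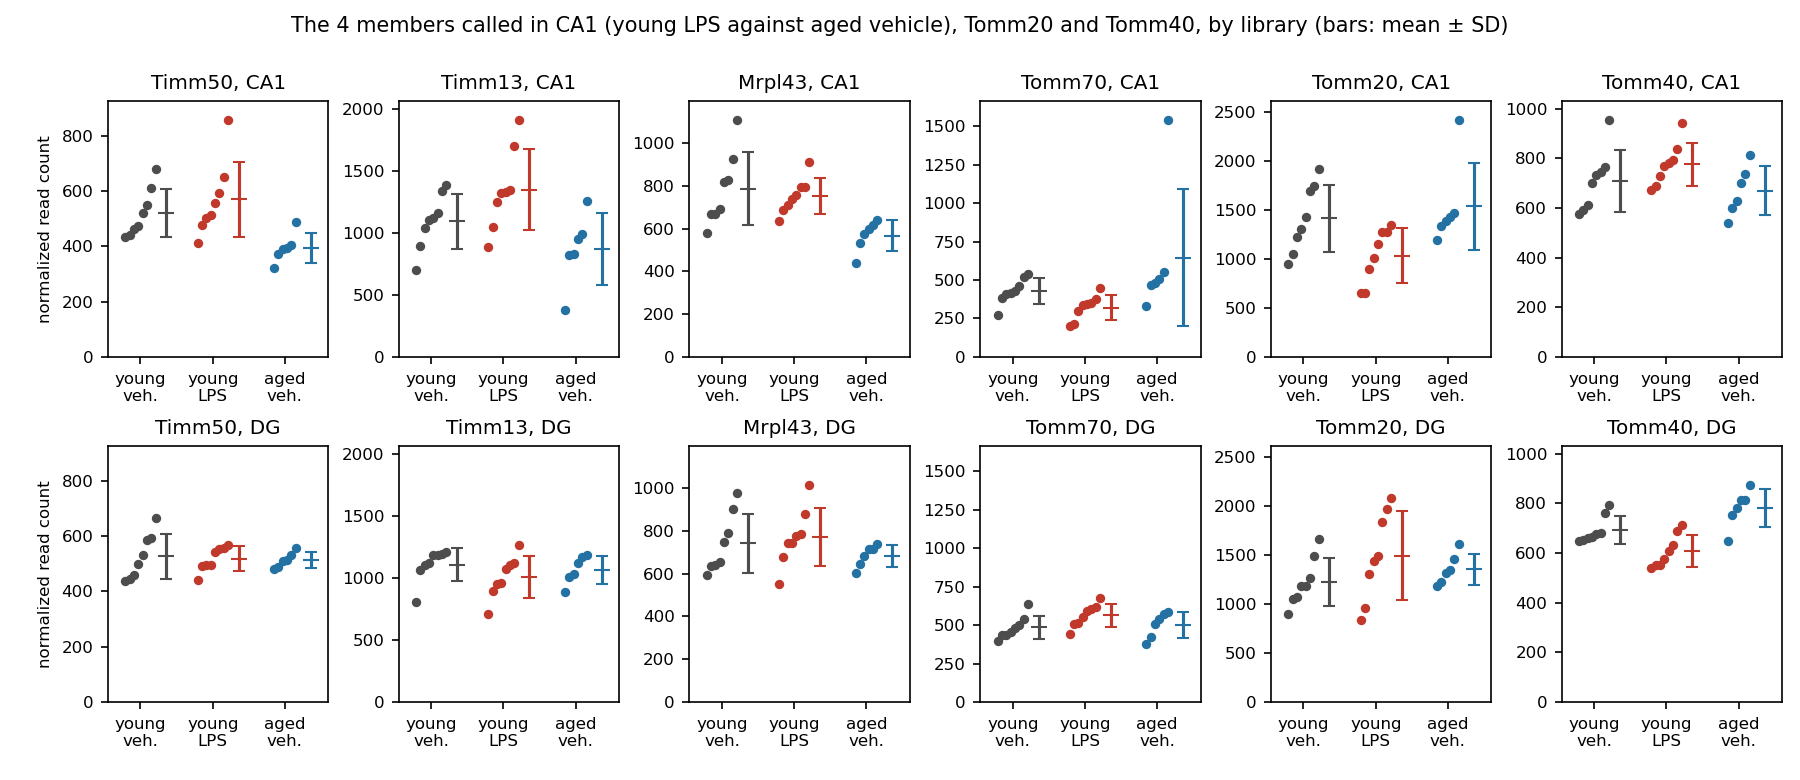
Normalized read counts of Timm50, Timm13, Mrpl43, Tomm70, Tomm20 and Tomm40 in every library of CA1 (top) and DG (bottom), with the mean ± SD of each group. Aged CA1 libraries lie low for Timm50 (321 to 487) and Mrpl43 (438 to 640), and 1 aged CA1 library, rat 2532, lies far above the rest for Tomm70 (1537).

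These calls stood at the edge of the threshold. Without rat 2532 the changes kept their sign and became 0.45 for Timm50 (adjusted p = 0.12), 0.45 for Timm13 (adjusted p = 0.13), 0.34 for Mrpl43 (adjusted p = 0.13) and -0.57 for Tomm70 (adjusted p = 0.12). No gene of the region was then called, the members' median was 0.06, and 54 of 93 were higher. Leaving out any one of 15 of the 22 libraries brought the members called to 0: 2532, 2415, 2420 and 2531 (aged), 2404, 2408, 2527, 2543 and 2717 (LPS) or 2410, 2526, 2571, 2722, 2728 and 2731 (young vehicle). Without 2411 there were 18, and without 2403 there were 11. The 4 members kept their direction in all 34 alternatives run, and were called in 15 (Mrpl43) or 16 (Timm50, Timm13 and Tomm70) of them. The alternatives refit the same libraries, so a kept direction is no separate support.

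Other gene groups are given beside the members for CA1, and not all leaned the same way. The 6 interneuron markers, 1 of several marker lists summed, reached between 9694 and 11184 in aged rats and between 6482 and 10097 in LPS rats. In young vehicle rats they summed to between 6933 and 10209. The highest aged sum, 11184, was that of rat 2532. The ranges of aged and LPS rats overlapped in this and in all the other marker lists. Medians of the microglia list were 3734 in LPS and 3734 in aged rats, and those of the astrocyte list 56524 and 58728. The 81 nuclear genes of oxidative phosphorylation had a median change of 0.21 between LPS and aged rats (60 of 81 higher, 1 called higher and 3 lower), and 72 cytosolic ribosomal protein genes had 0.41 (60 of 72 higher, 3 called higher). The 11 mitochondrially encoded genes went the other way, with a median of -0.18 (8 of 11 lower). Without rat 2532 these medians were 0.10, 0.17 and -0.04, in the same order. In that library alone the oxidative phosphorylation genes lay at -0.58, the cytosolic ribosomal genes at -1.12 and the 11 mitochondrially encoded genes at 0.59 against their means over CA1. The part of any of these in the members' changes was not tested.

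In DG the same comparison gave a median of 0.00 (52 of 96 higher) and called 0 of 96 members by limma (0.0134% of all genes) and by edgeR. At an unadjusted p under 0.05 there were 6 higher and 6 lower, 12.5% against 9.10% of all genes. The smallest p belonged to Tomm40, the channel of the outer membrane. It ran from 540 to 714 (median 593) in LPS, from 650 to 873 (median 796) in aged and from 647 to 795 (median 671) in young vehicle rats. The LPS mean was 608 ± 65.2 (n = 8) and the aged mean 781 ± 75.7 (n = 6), a log2 change of -0.36 (SE 0.08, adjusted p = 0.22). 5 of the 6 aged values lay above all 8 LPS values, and the exception was rat 2532 at 650. DESeq2 on the recovered reads called it, with adjusted p = 0.035. DESeq2 called Mrpl53 too, so 2 of 96 members (2.08%) against 0.148% of all genes. Mrpl53 passed the filter through young rats alone, as described below. Mrps33 differed by 0.34 (SE 0.11), Mrpl18 by -0.50 (SE 0.18), Timm23 by -0.30, Timm8b by 0.21, Mrps18b by -0.21 and Tomm70 by 0.18, with limma adjusted p between 0.34 and 0.68. Tomm22, Timm44, Tomm20, Mrpl12, Timm50 and Mrps12 lay between -0.13 and 0.13.

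Mrpl53, a large subunit gene, was detected in some rats and at 0 in others. In DG its values were 72.0, 142, 68.9 and 43.5 in young vehicle rats 2410, 2523, 2526 and 2572, and 0 in 2571, 2722, 2728 and 2731. In young LPS rats they were 30.8, 13.1, 34.3, 17.9, 184, 140 and 38.7, and 0 in rat 2717. In aged rats they were 0 in 5 and 2.24 in rat 2531. The 4 young rats 2717, 2722, 2728 and 2731, whose numbers share their leading digits, were all at 0, as were 5 of the 6 aged rats, so the zeros ran with the number series of the rats as well as with age. In CA1 it was at least 10 in 3 young vehicle rats, 1 LPS rat and no aged rat. The fitted DG change between LPS and aged rats depended on the pseudocount, from 2.80 with 5 to 5.94 with 0.25, and was not called by limma (adjusted p = 0.27 with a pseudocount of 1). With the number series as a covariate it was called by limma (4.98, adjusted p = 0.013). No aged DG value reached 10, so Mrpl53 passed the filter through young rats alone. Its calls against aged rats are therefore given as description only. The part of the number series in these zeros was not tested.

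Whether the changes differed between regions was tested on the difference of CA1 and DG within each rat. The effect of LPS against saline differed in 0 of 93 members (limma, adjusted; 0% of all genes), with 10 at an unadjusted p under 0.05 (10.8% against 13.4%). The smallest p values were those of Tomm20 (-0.71, SE 0.22, adjusted p = 0.34) and Mrpl20 (-0.68, adjusted p = 0.34), both lower in CA1 and higher in DG of LPS rats. The effect of age differed in 0 of 93 (0% of all genes), with 5 at the unadjusted limit (5.38% against 5.52%). Without the libraries of rat 2532 there were 0 of 93, against 1.90% of all genes, and the members' median went from -0.12 to -0.06. Timm23 differed by -0.54 and Timm50 by -0.37 (adjusted p = 0.73 for both), or by -0.37 and -0.32 without that rat.

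Between young LPS and aged rats 11 of 93 members (11.8%) differed between regions, where 12.6% of all genes did. Of the 93, 7 were higher, CA1 against DG (5.53% of all genes), and 4 were lower (7.06%). The higher ones were Tomm40 (0.58, SE 0.14), Mrpl34 (0.69, SE 0.18), Timm13 (0.77, SE 0.21), Tomm6, a small subunit of the TOM pore complex (0.85, SE 0.24), Mrps26 (0.64), Mrpl54 (0.66) and Mrps18b (0.69). The lower ones were Tomm70 (-1.03, SE 0.28), Mrps33 (-1.03, SE 0.28), Mrpl20 (-0.91, SE 0.27) and Mrpl48 (-0.59, SE 0.20). Adjusted p lay between 0.026 and 0.049. At an unadjusted p under 0.05 there were 31 of 93 (33.3%), against 33.2% of all genes, and without rat 2532 there were 18 (19.4% against 23.6%). The receptor Tomm20 (-0.66, adjusted p = 0.062) and Timm50 (0.49, adjusted p = 0.053) were not called.

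The 11 took opposite signs in the 2 regions. They were picked for a difference between the regions in these same data, so the opposite signs are no separate result. Mrps33, a small subunit protein, had means of 218 in LPS and 391 in aged rats in CA1, and of 323 and 253 in DG. Without rat 2532 its aged means were 277 in CA1 and 257 in DG. Mrpl20 ran from 296 to 689 in LPS and from 500 to 856 in aged rats in CA1, and from 516 to 1033 and from 415 to 668 in DG. Without rat 2532 its highest aged value in CA1 was 639. Tomm40 differed by 0.22 in CA1 and by -0.36 in DG. Without the libraries of rat 2532 none of the 11, and no other gene, was called; Tomm40 then differed by 0.60 (adjusted p = 0.077), Mrpl34 by 0.52 (0.086 adjusted), Tomm70 by -0.77 (0.098 adjusted) and Mrps33 by -0.71 (0.098 adjusted). The count also went to 0 without 2420, 2404, 2408 or 2543, to 3 without 2415, to 7 without 2531 and to 20 without 2411. All 11 kept their sign in all 29 alternatives, which refit the same rats, and were called in between 11 (Mrpl48) and 23 (Tomm40 among others) of them.

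**Figure D5:**
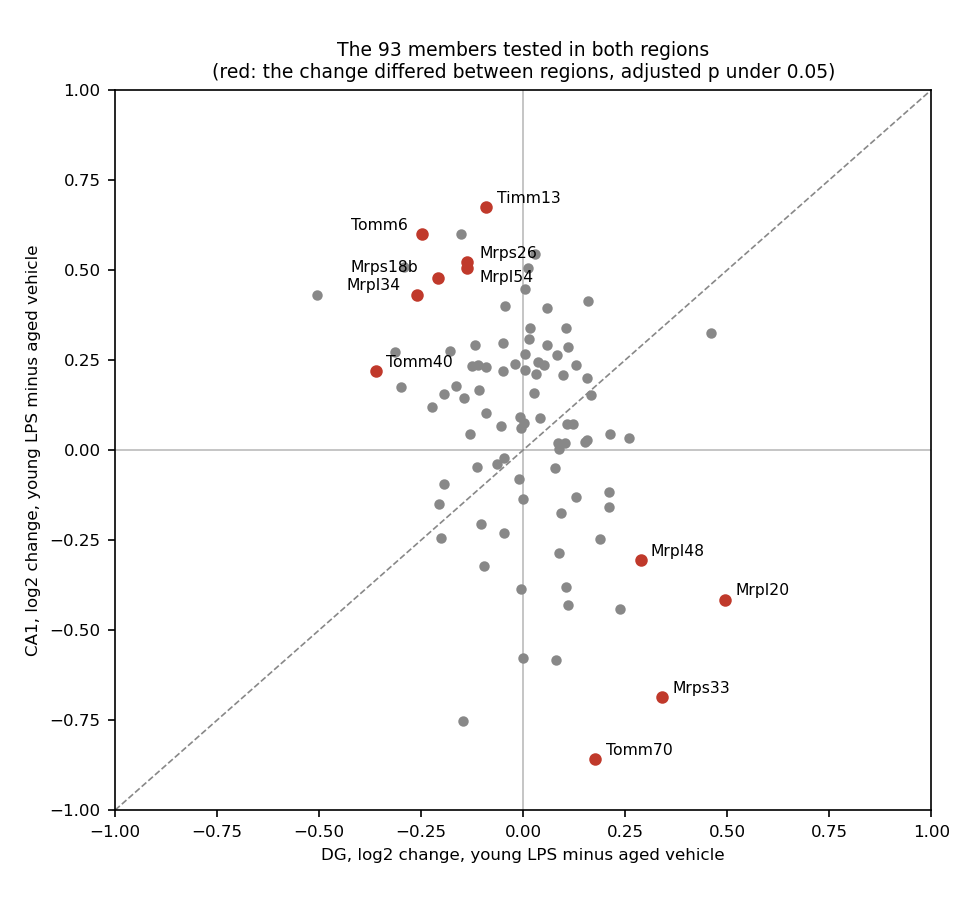
Log2 change of the 93 members between young LPS and aged vehicle rats in DG (x axis) and CA1 (y axis); the dashed line marks equal changes and red points are the 11 members whose change differed between regions. The red points lie in the upper left (7 members) and lower right (4 members), away from the line. They were picked for that difference, so their distance from the line is no separate result.

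The genes that serve the same machinery under other names were followed as lists. Of 22 import motor, sorting and processing genes in CA1, 1 was called higher in LPS than in aged rats, Romo1, a small inner membrane protein (0.69, adjusted p = 0.049), and 4 lower, among them Immp1l, a subunit of the inner membrane peptidase (-0.76, adjusted p = 0.049), and Mtx2, an outer membrane import protein (-0.66, adjusted p = 0.049). Their median change was -0.05. Of 34 translation factors and aminoacyl-tRNA synthetases, Vars2, the valyl-tRNA synthetase, was called higher (0.47) and Guf1, a mitochondrial elongation factor, lower (-0.78), with a median of -0.11. Of 12 transcription and genome maintenance genes 2 were called lower, Tfam, which packages mitochondrial DNA (-0.37), and Mterf1 (-0.53). Of 21 ribosome assembly and rRNA modification genes 1 was lower, Mterf4 (-0.59). Of 5 mitochondrial ribosome proteins with other symbols and of 10 nuclear regulators of mitochondrial biogenesis, 0 were called, the smallest p belonging to Ptcd3 (-0.50, adjusted p = 0.051) and to Ppargc1b (0.64, adjusted p = 0.061). In all 10 of these 104 genes (9.62%) were called in CA1, where 8.73% of all genes were. None of the 10 was called without rat 2532.

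In the other 5 comparisons within regions, 0 genes of these 6 lists were called by limma. Small p values were those of Chchd1, a small subunit protein, in DG between LPS and aged rats (0.77, SE 0.16, adjusted p = 0.19) and, with age in DG, of Chchd4, which oxidises proteins imported into the space between the membranes (-1.81, SE 0.55, adjusted p = 1.0). Nsun4, an rRNA methyltransferase, differed with LPS by -0.54 in CA1 (adjusted p = 0.65) and by 0.39 in DG (adjusted p = 0.52). In the test of regions between LPS and aged rats 18 of the 104 (17.3%) were called, 7 higher and 11 lower, where 12.6% of all genes were, and 0 were called without rat 2532. Among the 18 were Chchd1 (-1.37, adjusted p = 0.026), Romo1 (1.11, adjusted p = 0.025), Polrmt, the mitochondrial RNA polymerase (0.70, adjusted p = 0.026), and Hspd1, the matrix chaperonin (-0.84, adjusted p = 0.028).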

How the data were processed

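Polyadenylated RNA of 44 libraries was sequenced with an Ion Total RNA-Seq kit. The deposited values are a signal, taken here to be gene counts divided by size factors because whole reads could be recovered from them; per the submitters' processing notes STAR, Partek and DESeq2 were used with build rn6, while their versions, the annotation and the use of strand were not found in the labels. Dividing each library by the value of 1 read, fitted to its most frequent low value and multiples of it, gave whole reads within 0.1, for 99.75% of the CA1 values and for 99.98% of the DG values. CA1 and DG were normalized separately, so levels were not tested across them.

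Genes reaching 10 in 6 or more libraries were tested with limma 3.58.1 (R 4.3.3, trended and robust variance) on log2(value + 1), with all 3 groups in 1 fit per region and Benjamini-Hochberg adjustment. Region differences were fitted on CA1 minus DG within each rat, since both came from 1 hippocampus. P-values measure the spread between rats.

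The members and lists were chosen with earlier results of these data known. Named members were, for each role, up to 3 called in each direction by smallest p, otherwise the 1 of smallest p in each direction, plus Mrpl12, Mrps12, Tomm20, Tomm22, Tomm40, Tomm70, Timm23, Timm44 and Timm50; others were named after their values were seen. Alternatives were edgeR 4.0.16 and DESeq2 1.42.0 on recovered reads, TMM scaling, pseudocounts of 0.25 and 5, other filters, library weights, covariates for dissection and rat number, only the 2 groups compared, no rat pairing and leaving out each library; leaving out 2532 and 2572 together was added after seeing the data. The fits were tested on simulated data. A planned search of protein sequences was not run.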

Additional observations from a re-analysis of the deposited data

Results flagged for a closer look

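Of 144 groups of members and role means examined, 8 had 1 library standing apart from the others of its group. Chance gives about 1 in 20, and 8 of 144 is close to that share. The CA1 library of aged rat 2532 accounted for 6 of the 8, and values of 1 library are not separate findings. Its small subunit mean lay at -0.39 on the log2 scale, and its values were 1666 for Mrpl48, 960 for Mrps33, 2411 for Tomm20, 1241 for Tomm22 and 1537 for Tomm70. The other 2 were in DG: Timm13 was at 807 in young vehicle rat 2523, and Mrps18b was at 469 in young LPS rat 2573.

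The change between young LPS and aged vehicle rats differed between CA1 and DG for 11 members by the limma test of the within-rat difference. As CA1 minus DG, on the log2 scale, it was 0.58 for Tomm40, 0.69 for Mrpl34, 0.77 for Timm13, 0.85 for Tomm6, 0.64 for Mrps26, 0.66 for Mrpl54 and 0.69 for Mrps18b. It was -1.03 for Tomm70, -1.03 for Mrps33, -0.91 for Mrpl20 and -0.59 for Mrpl48. None of the 11 was called without the libraries of rat 2532, although each kept its sign.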

How the results depend on the processing

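Between young LPS and aged rats in CA1, 4 members were called (4.30%, against 8.73% of all genes). There were 13 by DESeq2 (all genes 22.1%) and 8 by edgeR (14.4%) on recovered reads, 8 with the dissection score as covariate (14.0%), 16 with library weights (23.4%) and 12 with the rat number series (19.5%). There were 0 without the filter on low values (0.015%), 0 with only the 2 groups compared (0%), 0 without 2532 and 2572 (0.027%), and 0 to 18 with single libraries left out. With age in CA1 library weights called 1, Mrpl57 (2.03% of all genes). In DG, LPS against aged rats, DESeq2 called 2 (Tomm40 and Mrpl53, all genes 0.148%), library weights 2 (Mrpl20 and Mrpl48, 1.15%) and the number series 1 (Mrpl53, 0.054%). Mrpl53 passed the filter through young rats alone. Of the region differences 11 were called (12.6% of all genes), 20 with the number series (18.3%), 0 without 2532 and 2572 (0%), and 0 to 20 with single libraries left out. Without the replicate block that pairs the regions of a rat there were 12 (13.1%). No called member reversed in these refits of the same libraries. The CA1 medians went from -0.16 to -0.08 with age and from 0.14 to 0.06 between LPS and aged rats without 2532. The causes of these shifts, and the part of depth in low values, were not tested.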
